A study of Mus musculus with 4 samples.

Results

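The Notch receptors, their ligands and their Hes and Hey target genes were described as 10 genes of the 22359 protein-coding genes considered: the receptors Notch1, Notch2, Notch3 and Notch4, the ligands Jag1, Jag2 and Dll1, and the targets Hes1, Hey1 and Heyl. They were chosen by name, and a Runx2 peak was counted for a gene when it overlapped by at least 1 bp the gene body widened by 20 kb on each side. This rule took 167 of the 126383 peaks in the 3 peak lists, and these peaks merged into 91 of 67703 regions. Runx2 occupancy had been measured by chromatin immunoprecipitation and sequencing (ChIP-Seq) in MC3T3-E1 subclone 4, an established preosteoblast line from mouse calvaria, labelled as strain C57BL/6 and used at passages 28 to 31. The cells were taken at day 0 (proliferation), and at day 9 (matrix deposition) and day 28 (mineralization) of culture with ascorbic acid and beta-glycerophosphate, and chromatin was pulled down with the Runx2 antibody M70. As the methods describe, reads of 2 biological repeats were pooled for each time point and compared with input DNA, which left 1 list of 25457, 60596 or 40330 peaks at days 0, 9 and 28. By the methods, both input libraries came from day 9 cells, so the day 0 and day 28 lists had no input of their own time point. With 1 list per time point there was no replicate error and no test between time points could be made. The lists hold no read counts, so the depth behind each peak was not measured here. The study states the raw reads of each time point, which were most numerous at day 0, the time point with the fewest peaks. Every interval given covers counting error alone. All cells were of 1 clonal line, so no value speaks for variation between animals. Peak lists give no expression, so the labelled cell type was not checked against marker genes.

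Notch signalling passes between touching cells. A Jagged or Delta-like ligand on one cell binds a Notch receptor on the next, the receptor is cut by an ADAM protease and by gamma-secretase, and its freed intracellular domain enters the nucleus and joins RBPJ and a Mastermind protein to switch on Hes and Hey genes, which encode basic helix-loop-helix repressors. In the osteoblast lineage the pathway is known for holding back differentiation of progenitors, and Hey1 and the Notch intracellular domain are known to lower the activity of Runx2, the transcription factor on which bone formation depends. A peak near a gene shows where Runx2-bound DNA was enriched and not whether the gene's transcription changed.

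The core Runx motif TGTGGT, which reads ACCACA on the other strand, was searched in the NCBIM37 (mm9) genome sequence. The search ran from 50 bp before to 50 bp after the centre of a peak or, in the counts, of a merged region. Sites of this kind are short, so a match describes the letters and not a bound site. The windows shown are the centres of the highest-scoring day 9 peaks that held the motif, for at most 6 genes taken by score. Windows with bases in an untranslated part of an exon were left out. The windows were printed since they show in which sequence the motif stood. Capitals mark the motif on either strand, and the letters follow the strand of the gene.
Notch1, intron 2, chr2:26350164-26350264, minus strand: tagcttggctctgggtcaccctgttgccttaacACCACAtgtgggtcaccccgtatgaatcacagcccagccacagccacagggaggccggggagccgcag
Notch2, intron 1, chr3:97824586-97824686, plus strand: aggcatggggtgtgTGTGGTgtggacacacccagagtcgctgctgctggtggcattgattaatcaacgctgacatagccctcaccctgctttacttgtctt
Notch3, downstream of the gene, chr17:32255638-32255738, minus strand: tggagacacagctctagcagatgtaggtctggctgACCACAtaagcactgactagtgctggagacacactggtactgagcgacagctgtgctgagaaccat
Notch4, intron 11, chr17:34710282-34710382, plus strand: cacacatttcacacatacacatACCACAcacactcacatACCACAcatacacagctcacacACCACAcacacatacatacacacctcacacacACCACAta
Jag2, upstream, chr12:114175268-114175368, minus strand: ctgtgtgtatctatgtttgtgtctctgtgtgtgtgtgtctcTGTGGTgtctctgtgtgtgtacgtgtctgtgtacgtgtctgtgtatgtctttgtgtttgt
Heyl, downstream of the gene, chr4:122929016-122929116, plus strand: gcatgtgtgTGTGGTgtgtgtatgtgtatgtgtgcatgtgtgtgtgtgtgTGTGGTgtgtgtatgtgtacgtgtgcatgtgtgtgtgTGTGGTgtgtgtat
In the Notch1, Notch2 and Notch3 windows 1 motif stood in mostly mixed sequence, although at Notch2 it adjoined a short run of TG letters. The Notch4, Jag2 and Heyl windows were largely alternating CA or TG letters, which covered 76.2%, 64.4% and 86.1% of their 101 bp, and the motif occurred 4, 1 and 3 times in them. These values are taken up again beside the motif counts.

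The other sequences shown are the 200 bp before the start sites of Hes1 and Hey1, the targets at which a peak lay over the start site. Capitals mark TGGGAA, the core of the RBPJ recognition sequence, and the letters again follow the strand of the gene.
Hes1, chr16:30065226-30065425, plus strand: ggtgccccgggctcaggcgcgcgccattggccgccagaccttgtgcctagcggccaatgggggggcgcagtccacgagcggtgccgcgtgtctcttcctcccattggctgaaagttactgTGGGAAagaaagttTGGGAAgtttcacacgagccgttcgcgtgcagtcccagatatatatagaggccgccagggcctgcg
Hey1, chr3:8667040-8667239, minus strand: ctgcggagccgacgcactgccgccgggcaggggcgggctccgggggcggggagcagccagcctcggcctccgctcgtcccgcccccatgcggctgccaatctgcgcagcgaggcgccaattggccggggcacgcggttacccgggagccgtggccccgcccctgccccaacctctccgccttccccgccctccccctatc
The Hes1 sequence held TGGGAA at 80 and at 66 bp before the start site, both on the gene's strand, and the Hey1 sequence held none. Neither held TGTGGT. Of 45958 windows of 200 bp before annotated start sites, 16.3% held TGGGAA and 10.1% held TGTGGT.

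On day 0 the 10 genes held 26 peaks, on day 9 they held 93 and on day 28 they held 48. These were 0.102% of the day 0 list (95% exact interval 0.0667 to 0.150), 0.153% of the day 9 list (0.124 to 0.188) and 0.119% of the day 28 list (0.0878 to 0.158). The higher number at day 9 thus went with a longer list, and the intervals of the 3 shares overlapped. When each list was reduced to its 25457 highest-scoring peaks, the genes held 26, 38 and 31 peaks. Their windows had a median length of 62.6 kb against 55.4 kb over all genes. Per gene, the median number of peaks was 3, 7 and 4 at days 0, 9 and 28, against 1, 2 and 2 over all genes, and per 100 kb of window the medians were 3.00, 9.99 and 5.66 against 1.69, 3.49 and 2.33.

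**Figure D1:**
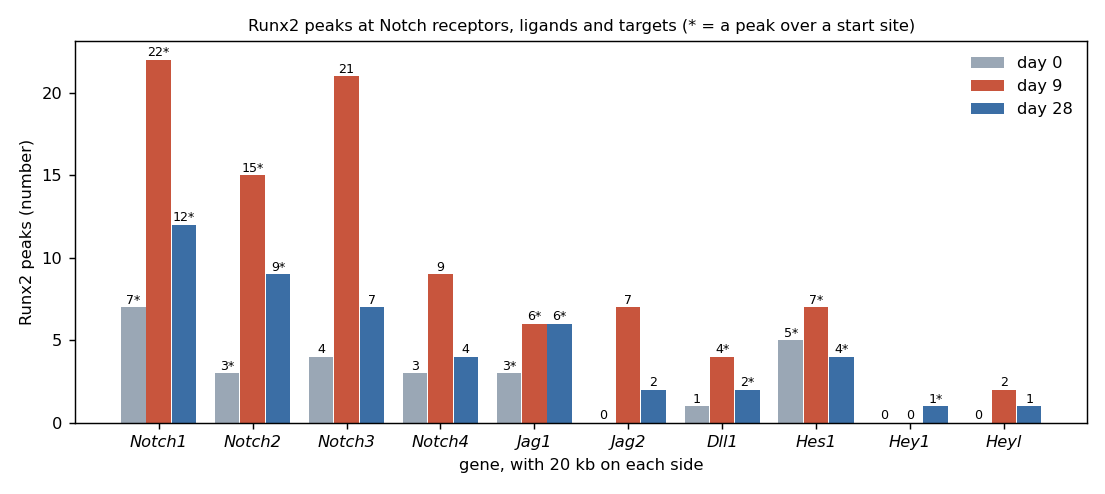
Number of Runx2 peaks (vertical axis) overlapping each gene with 20 kb on each side, with 1 bar per peak list (day 0 grey, day 9 red, day 28 blue) and the number above each bar, where an asterisk marks a gene with a peak over a start site. The 4 receptors carried 67 of the 93 day 9 peaks, and Hey1 had no peak within 20 kb before day 28.

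At least 1 peak was found at 7 of the 10 genes at day 0, at 9 at day 9 and at all 10 at day 28. Over all protein-coding genes the shares were 65.0%, 77.0% and 71.2%, so the count at day 0 lay near that of genes in general and the later counts somewhat above it. Jag2, Hey1 and Heyl lacked a peak at day 0, and Hey1 alone still lacked one at day 9. With 50 kb on each side all 10 genes had a peak at day 9. A start site was called occupied when a peak overlapped the 1000 bp upstream to 150 bp downstream of it. This was the case for 4 of the 10 genes at day 0, 5 at day 9 and 6 at day 28, against 42.7%, 51.6% and 50.1% of all genes.

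The start-site pattern differed from gene to gene. Notch1, Notch2, Jag1 and Hes1 had a start-site peak at all 3 time points, which was the pattern of 41.5% of all genes. Dll1 had one at days 9 and 28 only, as did 7.05% of all genes. Hey1 had one at day 28 only, as did 1.10%. Notch3, Notch4, Jag2 and Heyl had none at any time point, as was the case for 46.4% of all genes. Each class thus held at least 1 of the 10 genes, and within each role some start sites were occupied and others were not.

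The MACS score of a peak is 10 times the negative log10 of its p-value, and since it grows with sequencing depth it was read only as a percentile within its own list. Ties received the middle of their ranks. The score 3100 was shared by 192, 2699 and 1468 peaks at days 0, 9 and 28, so that a peak with this score stood at the percentile 97.4 at day 9 and 97.8 at day 28.

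The receptors held most of the peaks, with 17, 67 and 32 on days 0, 9 and 28 in 66 merged regions. Notch1, the receptor most studied in bone and blood progenitors, had 7, 22 and 12 peaks, at the percentiles 97.7, 99.2 and 98.3 of all genes at the same time point. Per 100 kb of window it stood at the percentiles 92.4, 97.8 and 95.6. The peaks formed 23 regions, of which 7 had a peak at all 3 time points and 11 at day 9 alone. GENCODE M1 gives Notch1 4 start sites, and 1, 3 and 2 peaks at days 0, 9 and 28 lay over one of them.

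At Notch1 the start site of the transcript Notch1-001 lay in the region chr2:26358330-26360105. Its peaks had scores of 147.46, 1274.14 and 1125.7 at days 0, 9 and 28, or the percentiles 21.3, 84.5 and 80.6 of their lists. The day 0 peak was thus among the weaker ones of its list and the later peaks among the stronger. Another region over the upstream start sites (chr2:26371563-26372490) had peaks at days 9 and 28 only, at the percentiles 74.2 and 57.0. Within the gene, the region with the highest scores was chr2:26349594-26350921 in intron 2, centred 9085 bp from the start site, at the percentiles 75.6, 94.8 and 93.3. Its day 9 peak is the one whose central sequence is printed above for Notch1.

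Upstream of Notch1, the region chr2:26383777-26384857 had no peak at day 0 and stood at the percentile 90.9 at day 9 and 26.3 at day 28. Alternating TG or CA letters covered 86.1% of its central 101 bp. The highest-scoring region in the Notch1 window, chr2:26300120-26302904, lay downstream of Notch1 over the promoter of its neighbour Sec16a, a gene for a protein of endoplasmic reticulum exit sites, at the percentiles 90.8, 97.4 and 99.6. It was centred 776 bp from a Sec16a start site and 57830 bp from the nearest Notch1 start site. Of the 23 regions in the window, 17 were nearer to a Notch1 start site than to that of any other protein-coding gene.

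Notch2, the receptor whose gain of function causes the skeletal disorder Hajdu-Cheney syndrome, had 3, 15 and 9 peaks at days 0, 9 and 28. Its window was the longest of the 10, at 177 kb, and per 100 kb it held 1.70, 8.48 and 5.09 peaks, at the percentiles 50.2, 77.7 and 74.1 among genes. Its start-site peak, in the region chr3:97816887-97818393, had scores of 1202.99, 3100 and 3100 and stood at the percentiles 93.4, 97.4 and 97.8. It was the highest-scoring peak of the Notch2 window at each time point. The other regions with peaks at all 3 time points lay in intron 2 (percentiles 66.0, 65.9 and 67.9) and in intron 9 (47.9, 81.9 and 83.5).

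In intron 1 of Notch2, 3 regions had peaks at days 9 and 28 and 1 had a peak at day 28 alone. The region chr3:97824196-97824941, whose day 9 centre is printed above, was the strongest of them, at the percentiles 85.4 and 52.9. Downstream of the gene, chr3:97959791-97960272 stood at 80.2 at day 9 and 35.8 at day 28, 4704 bp from a start site of Adam30, and its centre was again covered by TG or CA repeats for 86.1% of its length. Since Adam30 starts downstream of Notch2, 9 of the 16 regions were nearer to the Adam30 start site than to that of Notch2, although 8 of these lay inside Notch2.

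Notch3, a receptor best known from vascular smooth muscle and perivascular cells, had 4, 21 and 7 peaks at days 0, 9 and 28, at the percentiles 89.2, 99.1 and 92.9 among genes, and none over its start site. Of its 18 regions, 11 had a peak at day 9 alone, 3 at all 3 time points, 2 at days 9 and 28, 1 at days 0 and 9 and 1 at day 28 alone. The region with the highest score was chr17:32297662-32299376 in intron 2, centred 5306 bp from the start site. It stood at the percentiles 46.8, 93.6 and 76.9 at days 0, 9 and 28. Downstream of the gene, chr17:32253694-32255950 had no peak at day 0 and stood at 90.4 at day 9 and 52.7 at day 28. The day 0 peak with the highest score at this gene, at the percentile 82.4, also lay downstream, in chr17:32246369-32247908, where the later peaks stood at 58.8 and 33.9.

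Notch4, a receptor mainly of endothelial cells, had 3, 9 and 4 peaks and none over its start site. Inside the gene, 5 regions had a peak at day 9 alone and 1 had a peak at all time points. That region, chr17:34723624-34725323, lay in exon 30, the last exon, and stood at the percentiles 55.9, 91.9 and 86.2 at days 0, 9 and 28. The remaining 3 regions lay beyond the end of Notch4 at other genes. At day 0 the highest-scoring peak of the window (percentile 62.6) was the one over the shared promoter region of Agpat1 and Rnf5, chr17:34740002-34741874, which stood at 84.5 and 75.1 at days 9 and 28. Agpat1 encodes an acyltransferase of phospholipid synthesis and Rnf5 a ubiquitin ligase, and 5 of the 9 regions were nearer to a start site of another gene than to that of Notch4.

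**Figure D2:**
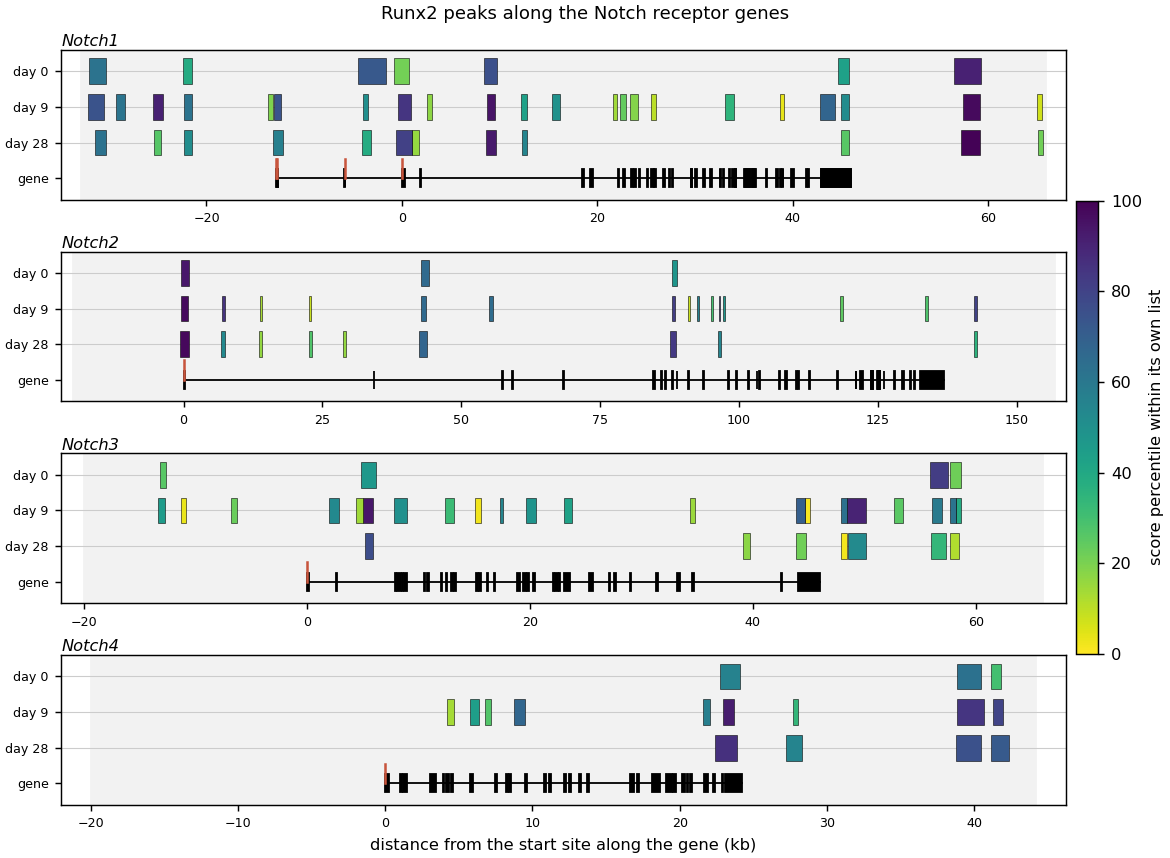
Runx2 peaks along the 4 receptor genes, with distance from the start site of the first listed transcript along the gene in kb on the horizontal axis and 1 lane each for the peaks of days 0, 9 and 28 and for the gene (black boxes exons, red ticks start sites, grey area the gene with 20 kb on each side). Colour gives the score percentile of a peak within its own list: the start site of Notch2 held a peak at the percentiles 93.4, 97.4 and 97.8, and the start sites of Notch3 and Notch4 held none.

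The 3 ligand genes held 4, 17 and 10 peaks in 15 merged regions. Jag1, the ligand mutated in Alagille syndrome, had 3, 6 and 6 peaks, and Jag2 had 0, 7 and 2. Dll1, a Delta-like ligand needed for somite patterning, had 1, 4 and 2. All 5 regions of Jag1 had peaks at more than 1 time point, and 3 of them had one at every time point.

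At Jag1 the start-site region chr2:136942289-136943997 had scores of 947.25, 2333.14 and 3173.56 at days 0, 9 and 28. These stood at the percentiles 89.9, 92.6 and 99.8 of their lists. The day 28 score lay above 3100, the highest day 28 score at Notch2 and Hes1, which stood at the percentile 97.8. Whether a score above 3100 marks a stronger peak than a score of 3100 was not tested. Directly beside the start-site region, chr2:136939110-136942226 lay just inside the gene with its centre in intron 2, with percentiles of 90.9, 87.0 and 87.9 for its highest peaks. At day 0 this peak scored slightly above the start-site peak, and at days 9 and 28 it scored below it. Farther into intron 2, chr2:136935360-136935978 had peaks at day 9 (29.6) and day 28 (57.8) only, and a region just past the end of the gene, chr2:136906255-136907088, stood at 71.2 at day 9 and 8.74 at day 28. All 5 regions were nearer to the Jag1 start site than to any other, although 1 of them lay in the last exon of the neighbour 2210009G21Rik.

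Jag2, which acts in limb and craniofacial development, had no peak at day 0 and none over its start site. Its strongest region, chr12:114146104-114146977, lay at the end of the gene and stood at the percentiles 94.7 at day 9 and 87.7 at day 28. In intron 5, chr12:114154677-114157052 had 2 peaks at day 9, the higher at 68.1, and 1 at day 28 (36.0). The other 4 regions had a peak at day 9 alone, at percentiles of 50.1 or lower, and 2 of these 4 were centred in TG or CA repeats. One of these, upstream of Jag2 and inside intron 4 of its neighbour Nudt14, is the one printed above.

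At Dll1 the start-site region chr17:15512444-15513692 had no peak at day 0, and stood at the percentiles 82.2 at day 9 and 54.9 at day 28. The only day 0 peak of the window lay at its far edge over the promoter of Fam120b, chr17:15532372-15533828, 110 bp from a Fam120b start site. This region had the highest score of the window at every time point, with percentiles of 63.8, 88.0 and 74.9. The rule on window width thus gave Dll1 its day 0 count. The remaining regions, 1 in exon 9 and 1 downstream, had peaks at day 9 alone, at 2.95 and 31.0.

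The 3 target genes held 5, 9 and 6 peaks, and most of these were at Hes1. Hes1, the target that cycles in segmenting and progenitor cells, had 5, 7 and 4 peaks at days 0, 9 and 28 in a window of 43.4 kb. Per 100 kb this was 11.5, 16.1 and 9.21, at the percentiles 98.1, 93.4 and 90.4 among genes. It was the only one of the 10 genes with more peaks at day 0 than at day 28. All 7 Hes1 regions were nearer to its own start site than to that of another gene.

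At Hes1, 4 regions had peaks at all 3 time points and lay within a few kilobases of the gene. The strongest, chr16:30063165-30065012, was centred 1338 bp upstream of the start site and reached into the start-site window, with scores of 1459.86, 3100 and 3100 and percentiles of 95.4, 97.4 and 97.8. Its day 0 value was the highest day 0 percentile of the 10 genes. Beside it, the small region over the start site itself, chr16:30065080-30065694, had scores of 102.11, 144.56 and 287.97, at the percentiles 0.986, 24.6 and 45.4. The day 0 peak was thus barely above the lowest score of the lists, 100, and the start-site call of Hes1 rests on the upstream peak at each time point as well. The 200 bp with the TGGGAA letters printed above lie within this weak region.

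A region over intron 3 and the last exon of Hes1, chr16:30066036-30067640, stood at the percentiles 62.0, 87.4 and 81.9. Downstream, chr16:30069589-30071356 was centred 5046 bp from the start site, had scores of 543.48, 3100 and 3100 and stood at 75.9, 97.4 and 97.8. Hes1 was therefore flanked by a strong region on each side at days 9 and 28. The other 3 regions had percentiles of at most 40.2, and none of them had a peak at day 28.

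Hey1, the target found in endocardial and osteoblast progenitor cells, had 1 region, over its start site. This region, chr3:8666655-8667749, had no peak at days 0 and 9, and at day 28 its score was 480.38, the percentile 60.5. It was 1 of 4 regions at the 10 genes with a peak at day 28 alone, and the other 3 stood at percentiles of 15.8 to 17.5. Heyl, a related target studied in heart and muscle stem cells, had no day 0 peak either. In its intron 1, chr4:122916594-122917333 stood at 33.9 at day 9 and 36.8 at day 28, and a downstream region, chr4:122928828-122929304, had a day 9 peak at 44.8 in the TG repeat printed above. Both Heyl regions were thus in the lower part of their lists.

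**Figure D3:**
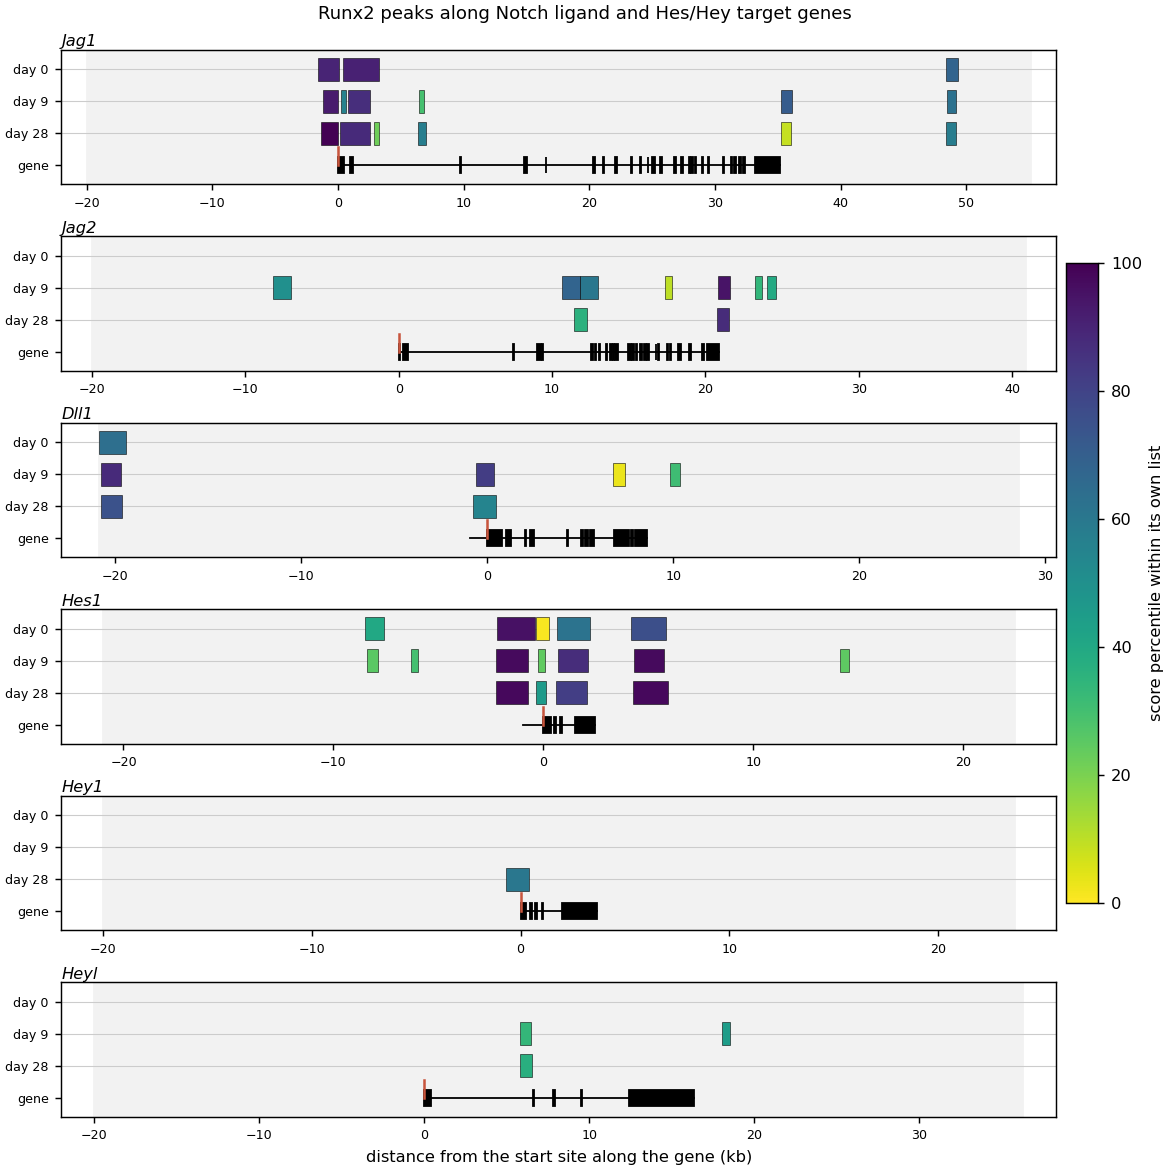
Runx2 peaks along the 3 ligand and 3 target genes, with distance from the start site along the gene in kb on the horizontal axis, 1 lane each for days 0, 9 and 28 and for the gene (black boxes exons, red ticks start sites, grey area the gene with 20 kb on each side), and colour for the score percentile within the list. The regions around Hes1 and at the start of Jag1 held peaks in every lane, whereas Hey1 held 1 peak in the day 28 lane.

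Of the 91 regions, 24 had a peak at all 3 time points, which was 26.4% (95% exact interval 17.7 to 36.7) against 27.4% of all regions. Regions with a peak at day 9 alone numbered 43, or 47.3% (36.7 to 58.0), against 34.5%. Those with peaks at days 9 and 28 numbered 18, or 19.8% (12.2 to 29.4), against 21.1%. In these 3 classes the overall share lay inside the interval for the first and the last and below it for day 9 alone. Regions of one gene are not independent, and the intervals do not allow for this.

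Peaks at day 28 alone were found in 4 regions (4.40%), against 7.59% of all regions, and peaks at days 0 and 9 in 2 (2.20%), against 1.69%. None of the 91 regions had a peak at day 0 alone, against 5.60%, or at days 0 and 28 without day 9, against 2.06%, and a count of 0 of 91 allows a share of up to 3.97% at the 95% exact bound. Every region at these genes that held a day 0 peak thus also held a day 9 peak. By role, 16 of 66 receptor regions, 4 of 15 ligand regions and 4 of 10 target regions had peaks at all time points. Their exact intervals, 14.5 to 36.4%, 7.79 to 55.1% and 12.2 to 73.8%, overlapped.

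The regions occupied at all time points also scored higher within each list. At day 9 the 27 peaks in such regions had a median percentile of 81.9 (range 14.4 to 97.4), and 8 of them stood at 90 or more, as did 23.9% of the day 9 peaks in all such regions. The 43 peaks in regions of day 9 alone had a median of 29.9 (2.27 to 67.6), and none stood at 90 or more, against 0.0857% over all such regions. The same gap was present over all regions, where the medians were 76.8 and 26.6. Peaks in regions of day 9 alone were also narrower, with a median width of 504 bp against 839 bp (474 and 731 bp over all regions). Over all their peaks, the 10 genes had median percentiles of 62.3, 50.1 and 54.8 at days 0, 9 and 28.

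**Figure D4:**
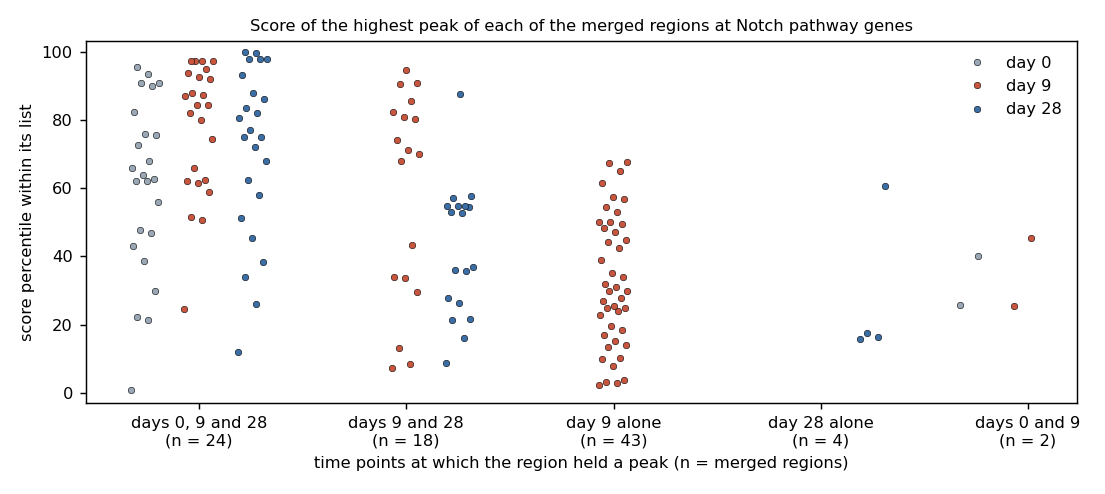
Score percentile within its list (vertical axis) of the highest peak of each merged region at the 10 genes, grouped by the time points at which the region held a peak (horizontal axis, n regions) and coloured by list. The day 9 peaks of regions occupied at day 9 alone lie between 2.27 and 67.6, whereas those of regions occupied at all time points reach 97.4.

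By position of their centres, 39 of the 91 regions lay in an intron of the gene, 14 in coding exons, 2 in untranslated parts of exons, 5 in the promoter, 11 upstream of it within 20 kb, 2 at the gene's end and 18 outside. Of the 16 exonic regions, 11 had a peak at day 9 alone, and these were at the receptors and Dll1. Over all regions of any location the share at day 9 alone was 34.5%, and that of exonic regions in general was not computed. Among peaks, exons held 15.4%, 23.7% and 16.7% at days 0, 9 and 28, against 18.1%, 15.8% and 17.3% of each whole list, and introns held 34.6%, 41.9% and 43.8% against 36.4%, 42.9% and 40.6%. Since windows of genes hold more genic sequence than the genome at large, these shares were not compared further. In all, 65 regions were nearest to a start site of their own gene and 26 were nearer to that of another, most of them at Notch2, Notch1, Notch4 and Jag2 (9, 6, 5 and 4).

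The motif TGTGGT lay within 50 bp of the centre in 17 of the 91 regions, or 18.7% (95% exact interval 11.3 to 28.2), against 24.2% of all regions. In windows of the same length centred 500 bp to either side it was found in 8.24% at these genes and 7.36% over all regions. The motif was thus more frequent at centres than beside them, at these genes as in general. Among the receptors 14 of 66 regions held it (Notch2 6, Notch1 4, Notch3 3 and Notch4 1), among the ligands 1 of 15 and among the targets 2 of 10. Anywhere in the region it was found in 63 of 91, and its density was 1.77 sites per kb, the same as over all regions.

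Regions with a peak at all 3 time points held the motif at the centre in 1 of 24 cases, 4.17% (0.105 to 21.1), against 13.6% of all such regions. The one was the intron 2 region of Notch1. Regions of days 9 and 28 held it in 5 of 18 (27.8%, against 26.7%) and those of day 9 alone in 9 of 43 (20.9%, against 32.3%). The 95% interval of each share held the overall value. The strong regions at the start sites of Notch2 and Jag1 and around Hes1 were among those without TGTGGT at the centre. That centre is the middle of the merged peaks and not the point of highest signal. Elsewhere in the regions the nearest motif lay 220 bp from the centre at Notch2, 590 bp at Jag1 and 784 bp downstream of Hes1. The strong region upstream of Hes1 held none.

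As the printed windows show, part of these motifs stood in simple repeats, so the share of the central 101 bp that lay in alternating TG or CA letters (at least 4 in a row) was measured, a measure chosen after the sequences were seen. It was 40% or more in 9 of the 91 regions (9.89%), against 8.79% of all regions. By time point these were 0 of 24 regions occupied at all 3, 2 of 18 at days 9 and 28, and 7 of 43 at day 9 alone (16.3%). Over all regions the shares were 0.506%, 2.97% and 23.0%. Such repeats were thus mostly found where a peak was called at day 9 alone, genome-wide as at these genes.

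The 9 regions were at Notch1 and Notch2 (2 each), Jag2 (2), Notch3, Notch4 and Heyl (1 each). Of the 17 regions with TGTGGT at the centre, 5 were among them (29.4%), against 14.5% of all regions with the motif there. Without peaks centred in repeats the counts at the 10 genes were 26, 84 and 46 at days 0, 9 and 28. Without such regions the share with peaks at day 9 alone was 43.9% (29.1% over all regions) and the share with TGTGGT at the centre 14.6% (22.7% over all). Of the regions named above, those upstream of Notch1, downstream of Notch2 and downstream of Heyl were among them, whereas those over start sites were not. Whether repeats had a part in calling these peaks was not tested.

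**Figure D5:**
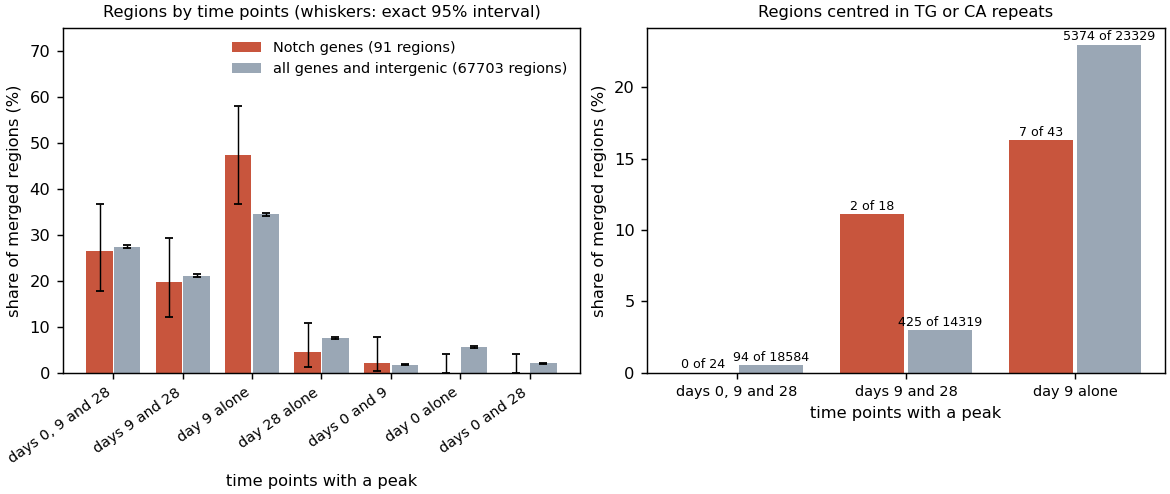
Left, share of merged regions (vertical axis, %) by the time points at which they held a peak, for the 91 regions at the 10 genes (red) and all 67703 regions (grey), with exact 95% intervals. Right, share of regions (%) whose central 101 bp lay to 40% or more in TG or CA repeats, with the counts above the bars: 7 of 43 regions of day 9 alone and 0 of 24 regions of all time points at the 10 genes.

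Motifs of the pathway's own factors were counted in the same central windows, on both strands. TGGGAA was found in 16 of 91 regions, 17.6% (10.4 to 27.0), against 8.83% of all regions, and in 12.1% of the windows 500 bp away against 9.65%. By role it was found in 13 of 66 receptor regions (19.7%, against 11.4% of their windows 500 bp away), in 2 of 15 ligand regions (13.3% against 16.7%) and in 1 of 10 target regions (10.0% in both). The N-box CACNAG, bound by Hes proteins, was found in 17.6% against 21.4%, and the E-box CACGTG, bound by Hey proteins, in 0 of 91 (up to 3.97%) against 2.15%. TGANTCA, the site of AP-1 factors, was found in 2.20% against 4.21%. None of the motifs contains another.

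A list of 46 other genes of the pathway gives the setting of the 10. It was drawn up by role with earlier results of these data known, and no window of these genes overlapped another or those of the 10. At days 0, 9 and 28, 43, 45 and 44 of the 46 genes had a peak, against 65.0%, 77.0% and 71.2% of all genes. At the same days 33, 34 and 34 of the 46 had one over a start site. The latter were 71.7%, 73.9% and 73.9%, against 4, 5 and 6 of the 10 genes and the shares of all genes given above. In all, 31 of the 46 had a start-site peak at all 3 time points and 10 at none, against 41.5% and 46.4% of all genes.

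By role the start-site calls were uneven. Over all genes, 41.5% had a start-site peak at all 3 time points and 46.4% at none. All 8 genes of receptor cleavage (among them the sheddases Adam10 and Adam17 and the gamma-secretase subunit Ncstn) had a start-site peak at every time point. So did 6 of 7 genes of the nuclear complex, among them Rbpj, the DNA-binding partner of the Notch intracellular domain, 7 of 8 genes of receptor turnover and 5 of 6 of receptor glycosylation and maturation. Of the other ligands, Dll3 and Dll4, neither had one at any time point, and of 7 other targets Nrarp had one at all 3, Hes6 at days 9 and 28 and Hes7 at day 0 only. Hey2, a relative of Hey1, had no peak at any time point within 20 kb.

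Among the 46, Maml3, a Mastermind coactivator, had 11, 38 and 26 peaks at days 0, 9 and 28, and Neurl1a, a ubiquitin ligase acting on ligands, had 6, 18 and 11. The counts of Notch1 (22) and Notch3 (21) at day 9 lay between those of Maml3 and Neurl1a. In sum the 46 genes held 130, 324 and 212 peaks, with medians of 2, 5 and 3.5 per gene, against 3, 7 and 4 for the 10.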

How the data were processed

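The 3 deposited peak lists (days 0, 9 and 28) were analysed. Per the labels and methods, the authors sequenced 36-base reads (CASAVA 1.6), mapped them to mm9 with Bowtie 0.12.8, pooled 2 repeats per time point and called peaks against input DNA with MACS 1.4.1 at a p of 1e-10, and the deposited score is the negative log10 p-value multiplied by 10. Here, gene bodies, start sites and exons of protein-coding transcripts came from GENCODE M1, sequence from NCBIM37 (all peak ends lay within its chromosomes), and starts were counted from 1. Peaks of different lists sharing at least 1 bp were merged. Python 3.11.15, NumPy 2.4.6 and SciPy 1.17.1 were used, and the counting steps were tested on simulated data. Shares carry exact binomial (Clopper-Pearson) 95% intervals. No test was made between time points or gene lists. The members and lists were chosen with earlier results of these data known. Named regions were the highest-scoring and the start-site peaks of each gene, with further regions named after their values were seen. The input library was not analysed here. The values of some genes are not reported here.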

Additional observations from a re-analysis of the deposited data

How the results depend on the processing

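In 97 recomputed values, 86 stayed within 1.5 times a count or within the 95% interval of a share, and 11 moved. By this measure the numbers of genes with a peak and with a start-site peak moved under none of their alternatives. With 10 genes the measure is coarse. At day 0, 7 genes had a peak as reported, 9 with 50 kb and 5 at a p of 1e-50. At day 9 these numbers were 9, 10 and 8. At day 28, 6 genes had a start-site peak as reported and 4 at a p of 1e-50. The number of peaks at the 10 genes moved with the score required: at a p of 1e-20 it was 55 at day 9, and at a p of 1e-50 it was 8, 28 and 18 at days 0, 9 and 28. With lists of equal length it was 38 at day 9 and 31 at day 28. With equal lists the share of regions with peaks at all 3 time points was 40.4% and the share at day 9 alone 23.4% (37.7% and 11.9% over all regions), so by construction fewer weak day 9 peaks entered. At a p of 1e-50 the share at day 9 alone was 36.7% and that at days 9 and 28 was 33.3% (24.3% and 38.3% over all regions). TGTGGT within 100 bp of the centre was found in 31.9% of regions, against 36.5% over all regions, since the window is wider. Windows of 10 or 50 kb, peak centres in place of overlap and the nearest start site moved none of the values beyond these limits. The same held for the centre of the day 9 peak and for leaving out TG and CA repeats, both chosen after seeing the data. At days 0, 9 and 28 the peak counts were 18, 78 and 39 with 10 kb and 39, 139 and 71 with 50 kb. With the nearest start site they were 18, 67 and 36. No paired analysis was possible because each time point has 1 pooled list, and no repeat could be left out. The depth behind each peak was not measured here, so an absent peak may lie below the calling threshold, although the study states the most raw reads for day 0, whose list is the shortest.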

Other observations

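The genes differed in where the strongest peak of their window lay at day 28. At Notch2, Jag1 and Hey1 it overlapped the start-site window, at the percentiles 97.8, 99.8 and 60.5, and at Hes1 the upstream peak that reached into that window shared the score 3100 with the peak downstream of the gene. At Notch3, Notch4 and Jag2, whose start sites had no peak, it lay in intron 2, in the last exon and at the end of the gene, at the percentiles 76.9, 86.2 and 87.7, and at Heyl, also without a start-site peak, in intron 1 at 36.8. At Notch1 and Dll1 it lay at the promoters of the neighbours Sec16a and Fam120b, at 99.6 and 74.9. Among the other ligands and targets without a start-site peak at any time point, the highest day 9 peaks of Dll4 and Hes3 stood at the percentile 97.4 and those of Hes2, Hes5 and Dll3 at 81.9, 70.3 and 68.9, and Hey2 had no peak.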
